A study of Mus musculus with 29 samples.

Results

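The chemokine receptor gene Cxcr3 and the genes of its interferon-inducible ligands Cxcl9, Cxcl10 and Cxcl11 were followed through acute, chronic and resolving colitis of mice. Each gene was taken from the single probe set (a group of short DNA probes for a transcript) of a Mouse Gene 1.0 ST array that names no other gene, and each had only 1 such probe set. The 4 genes are 4 of 19938 with a probe set of their own among 35511 probe sets. Colitis was induced with dextran sodium sulphate (DSS), a polymer that injures the colonic epithelium, in the drinking water of female C57BL6J mice, with no transgene or other agent in any group. The acute group had 7 days of DSS and no recovery (4 mice used here, B2, B3, B4 and C3, while 1 further array was not analysed here). The 1-cycle group had 7 days of DSS and 2 weeks of normal water (J1, J5, K1, K2 and K3). A cycle of this length was given 2 times in the 2-cycles group (D4, D5, E2, E3 and E4) and 3 times in the 3-cycles group (F1, F3, F5, G2 and G3). By the methods, the later cycles used a higher percentage of DSS than the initial administration. When the 2-cycles, 3-cycles and recovery groups are set against the acute and 1-cycle groups, dose and number of cycles therefore cannot be told apart. The recovery group had 2 cycles and then a further 3 weeks of normal water (M1, M3, M5, N2 and N3), and control mice drank normal water throughout (A1, A2, A5, L1 and L2). The age in the labels, 6 weeks, is by the methods that at the start of the study, and the mice were older, and of matched age, when killed. RNA came from a piece of the most infiltrated colon of 1 mouse per array, so each array samples a mixture of cells from the worst-affected tissue, and fewer cells of a type cannot be told apart from less RNA per cell.

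CXCL9, CXCL10 and CXCL11 are CXC chemokines that lack the ELR motif of the neutrophil-attracting family members. Interferon gamma is made by T helper 1 cells, cytotoxic T cells and natural killer (NK) cells. It induces all of these ligands in macrophages, epithelial cells, endothelial cells and fibroblasts. Type I interferon and tumor necrosis factor also act on ligands of this group, CXCL10 among them. The ligands bind CXCR3, a G protein-coupled receptor of activated T cells and NK cells, and draw these cells into inflamed tissue, the gut included. In the RefSeq table, Cxcl9, Cxcl10 and Cxcl11 follow each other on mouse chromosome 5, where the gene Art3 spans Cxcl10 and Cxcl11, and Cxcr3 lies on the X chromosome. RefSeq annotates Cxcl11 of this reference mouse genome as a transcribed pseudogene and the other 3 genes as protein coding. Cxcl11 is called a ligand below by its name only. Whether its RNA gives a working chemokine in these mice was not tested, so its values are not read as a rise of a working ligand.

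The promoters of Cxcl9 and Cxcl10, the ligands of larger change, are printed because interferon-induced and NF-kB-induced transcription factors act on such regions. They are RefSeq promoters of GRCm38.p6, 250 bases before to 50 bases after the annotated start, written 5′ to 3′, and the capitals mark the matches to the motifs searched.
Cxcl9 promoter, chr5:92328030-92328329, minus strand: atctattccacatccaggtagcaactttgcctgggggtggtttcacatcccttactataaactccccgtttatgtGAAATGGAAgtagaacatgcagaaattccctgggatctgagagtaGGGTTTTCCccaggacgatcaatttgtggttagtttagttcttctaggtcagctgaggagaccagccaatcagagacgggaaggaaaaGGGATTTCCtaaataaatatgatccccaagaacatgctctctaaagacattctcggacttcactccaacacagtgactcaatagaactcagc
Cxcl10 promoter, chr5:92348840-92349139, minus strand: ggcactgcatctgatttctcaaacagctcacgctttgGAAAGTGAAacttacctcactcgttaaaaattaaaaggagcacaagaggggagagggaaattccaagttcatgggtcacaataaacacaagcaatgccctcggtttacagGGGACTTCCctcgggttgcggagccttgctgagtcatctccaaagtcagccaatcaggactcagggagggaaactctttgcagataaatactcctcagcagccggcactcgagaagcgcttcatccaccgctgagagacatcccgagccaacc
The motifs were searched on both strands as GAAANNGAA (core of an interferon-stimulated response element), TTCNNNGAA (gamma-activated site) and GGGNNTTCC (NF-kB site), and no match overlapped another. The Cxcl9 window held 1 GAAANNGAA match, GAAATGGAA, from position −175 to −167 relative to the start, and 2 GGGNNTTCC matches. The Cxcl10 window held 1 GAAANNGAA match, GAAAGTGAA, from −213 to −205, and 1 GGGNNTTCC match. Of the 32851 promoters of this length, 8.56% held GAAANNGAA, 8.3% TTCNNNGAA and 5.82% GGGNNTTCC. Neither window held TTCNNNGAA, and the Cxcr3 window held none of the 3 motifs. Other forms of these sites were not searched, so the counts hold for these 3 patterns only and do not rank the promoters. A match of letters is a description and not evidence of a bound site. Cxcl11 was matched to no promoter entry.

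The values are log2 expression values after robust multi-array averaging (RMA), and the medians of the 29 arrays lay between 6.02 and 6.14, as this normalization sets them. 1 probe set with no listed gene divided the arrays into a low set of 14 (at most 8.14) and a high set of 15 (at least 11.1). It was picked from these data, as the one with the widest gap between neighbouring values among the 12101 probe sets with no symbol. All control and 1-cycle arrays were in the low set and all 3-cycles and recovery arrays in the high set, while the acute and 2-cycles groups held both. A fit with the set as a covariate therefore separates set from group only through the acute and 2-cycles groups. The colon epithelium markers averaged 10.9 to 11.6 per array in acute colitis and 11.3 to 11.5 in controls, and of these 10 markers 1 was called, Slc26a3, the chloride exchanger of the colonic surface, lower in acute colitis (−1.25 ± 0.24, adjusted p = 0.000389). Over all probe sets, 1.4% were called lower in acute colitis. By adjusted p alone 2 of the 10 markers were lower and 1 higher in acute colitis, 1 was lower after 3 cycles and 2 after recovery. Epcam, a surface protein of epithelial cells, was not called in any DSS group. Differences were fitted with limma over all groups and probe sets, and a gene was called where its Benjamini-Hochberg adjusted p was under 0.05 and its fold change above 2. Since the 5 DSS groups were set against the same controls, their differences from control are given side by side and not as separate evidence.

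Cxcl9 rose in every DSS group, and its measured log2 change was the largest of the ligands in each. In acute colitis its log2 values were 8.95, 12.43, 11.24 and 10.60 in B2, B3, B4 and C3. After 1 cycle they were 9.62, 10.24, 9.42, 10.20 and 9.07, and after 2 cycles 8.26, 8.20, 9.89, 8.17 and 8.85. No mouse of these groups came near the controls given below, although B2 lay lower than every other acute mouse. After 3 cycles the values were 8.36, 8.45, 8.16, 9.60 and 10.58, and after additional recovery 8.10, 8.81, 8.25, 9.50 and 7.96. In controls they were 5.37, 6.02, 5.59, 5.44 and 5.79. The lowest value of any DSS mouse, 7.96 in recovery mouse N3, was above the highest control value of 6.02, so that no DSS group overlapped the controls. The share of all probe sets with no overlap is not given here. For each member a lack of overlap is therefore only a description of its values. The log2 fold change against control was 5.16 ± 0.52 (SE) in acute colitis, which is 35.8-fold (adjusted p = 1.87e-07). It was 4.07 ± 0.49 after 1 cycle (16.8-fold, adjusted p = 2.58e-05) and 3.03 ± 0.49 after 2 cycles (8.19-fold, adjusted p = 0.000379). It was 3.39 ± 0.49 after 3 cycles (10.5-fold, adjusted p = 7.72e-05) and 2.88 ± 0.49 after additional recovery (7.36-fold, adjusted p = 0.000537). By the size of its fold change Cxcl9 ranked 4 in acute colitis and 3 after 1 cycle from the top of all 35511 probe sets, and 29 after recovery.

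Cxcl10 rose most in the acute group and much less afterwards. Its values in B2, B3, B4 and C3 were 7.03, 11.45, 9.95 and 8.72 in acute colitis. After 1 cycle they were 6.82, 7.28, 6.97, 7.51 and 6.18, and after 2 cycles 6.52, 6.35, 7.40, 6.15 and 6.76. Acute mouse B2 lay inside the range of the 1-cycle and 2-cycles mice, and the other acute mice above it. After 3 cycles the values were 6.24, 6.48, 6.44, 6.76 and 8.49, and after additional recovery 6.06, 6.54, 6.24, 6.84 and 6.18. In controls they were 5.51, 5.66, 5.31, 5.07 and 5.43. All DSS mice were above all controls here too, and 3-cycles mouse G3 stood well above the other 3-cycles mice. The log2 fold change against control was 3.89 ± 0.53 in acute colitis (14.8-fold, adjusted p = 6.46e-06) and 1.49 ± 0.50 after 3 cycles (2.80-fold, adjusted p = 0.0402), and both were called. The call after 3 cycles was lost without G3 (1.08, adjusted p = 0.149), without G2, or without any 1 of the 5 control mice. The differences after 1 cycle (1.56 ± 0.50, adjusted p = 0.0606), 2 cycles (1.24 ± 0.50, adjusted p = 0.161) and recovery (0.98 ± 0.50, adjusted p = 0.21) were not called. An exact two-sided permutation test of Cxcl10 alone gave the smallest p the 5 against 5 mice allow, 0.007937, after 1 cycle, 2 cycles and recovery alike. Adjusted over 40 tests of the members, this was 0.01764. Any lack of overlap between 2 such groups gives this p, and the share of all probe sets that reach it is not given here.

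Cxcl11 was called only in acute colitis among the comparisons with control, and its probe set was dim, below the median of its array in 27 of 29 arrays. Its values in B2, B3, B4 and C3 were 5.30, 7.22, 6.55 and 5.88 in acute colitis. The 1-cycle, 2-cycles, 3-cycles and recovery mice lay between 5.22 and 5.57, 4.97 and 5.28, 5.18 and 5.79, and 5.09 and 5.48. The controls lay closely together, at 4.86, 4.94, 4.92, 4.97 and 5.0. Only the 2-cycles group overlapped them. The log2 fold change in acute colitis was 1.30 ± 0.21 (2.46-fold, adjusted p = 5.61e-05), and without B3 it was 0.97, under 2-fold (adjusted p = 0.000147). After 1, 2 and 3 cycles and recovery it was 0.47, 0.20, 0.51 and 0.39, with adjusted p of 0.186, 0.662, 0.0747 and 0.205.

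Cxcr3, the receptor, moved by less than 2-fold in every group and was called in none. Its values were 5.81, 6.00, 6.10 and 6.05 in acute mice B2, B3, B4 and C3. After 1 cycle they were 6.34, 6.18, 6.41, 6.23 and 6.10, and after 2 cycles 6.28, 6.27, 6.51, 6.13 and 6.11. Every mouse of these chronic groups was above every acute mouse, though by a narrow margin (6.10 was both the lowest 1-cycle and the highest acute value). After 3 cycles the values were 5.84, 6.15, 5.96, 6.38 and 6.30, and after recovery 6.13, 6.24, 5.81, 6.12 and 5.90. In controls they were 5.48, 5.92, 5.70, 5.77 and 6.07. The acute, 3-cycles and recovery mice overlapped the controls, and the 1-cycle and 2-cycles mice did not. By adjusted p alone Cxcr3 passed after 1 cycle (0.46 ± 0.11, adjusted p = 0.0111), 2 cycles (0.47 ± 0.11, adjusted p = 0.0114) and 3 cycles (0.34 ± 0.11, adjusted p = 0.0367). It did not pass in acute colitis (0.20 ± 0.12, 95% interval −0.05 to 0.45, adjusted p = 0.249) or recovery (0.25 ± 0.11, adjusted p = 0.147). By adjusted p alone, 11.4% of all probe sets passed as higher in acute colitis, 3.4% after 1 cycle, 3.08% after 2 cycles, 8.81% after 3 cycles and 6.05% after recovery.

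**Figure D1:**
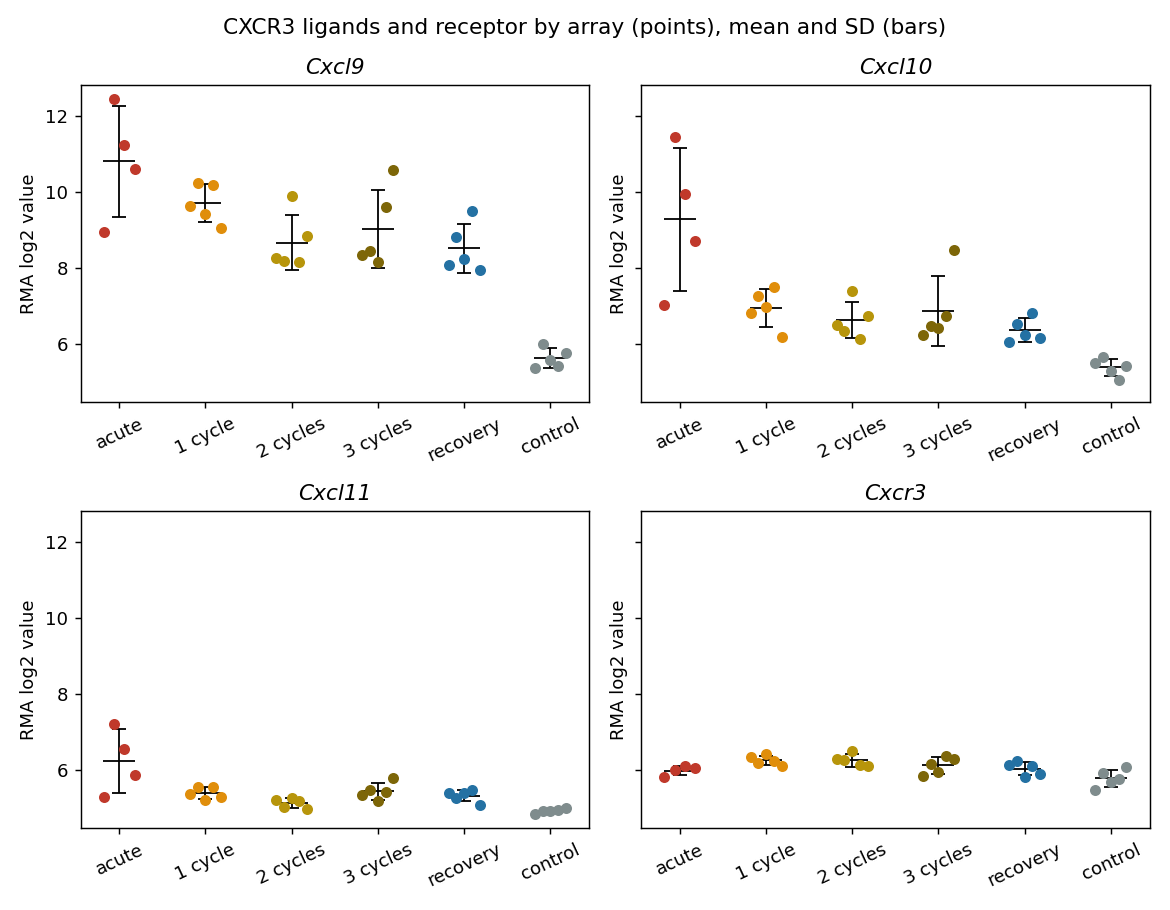
RMA log2 values (vertical axes) of Cxcl9, Cxcl10, Cxcl11 and Cxcr3 in each of 29 arrays, 1 point per mouse, by group (horizontal axes), with the mean and SD as bars. Cxcl9 lies between 7.96 and 12.43 in DSS mice and between 5.37 and 6.02 in controls, whereas Cxcr3 lies between 5.81 and 6.51 in DSS mice and 5.48 and 6.07 in controls.

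Of the 4 members, 3 were called higher than control in acute colitis, against 1.38% of all probe sets. The count was 1 after 1 cycle (0.87% of all probe sets), 1 after 2 cycles (0.907%), 2 after 3 cycles (1.02%) and 1 after additional recovery (1.08%), and Cxcl9 was in every count. With the 2 sets of arrays as a covariate, no member was called after 3 cycles or recovery. The log2 fold change of Cxcl9 was then 2.88 ± 0.72 after 3 cycles (adjusted p = 0.0538) and 2.37 ± 0.72 after recovery (adjusted p = 0.145), and that of Cxcl10 after 3 cycles was 1.26 ± 0.75 (adjusted p = 0.514). In the acute group the same fit gave 4.91 ± 0.58 for Cxcl9 and 3.78 ± 0.61 for Cxcl10, and the calls of both and of Cxcl11 were made there too. Within the low set alone, the 2 mice of the 2-cycles group had a Cxcl9 difference of 2.59 ± 0.63 from control (adjusted p = 0.0722), which was not called.

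**Figure D2:**
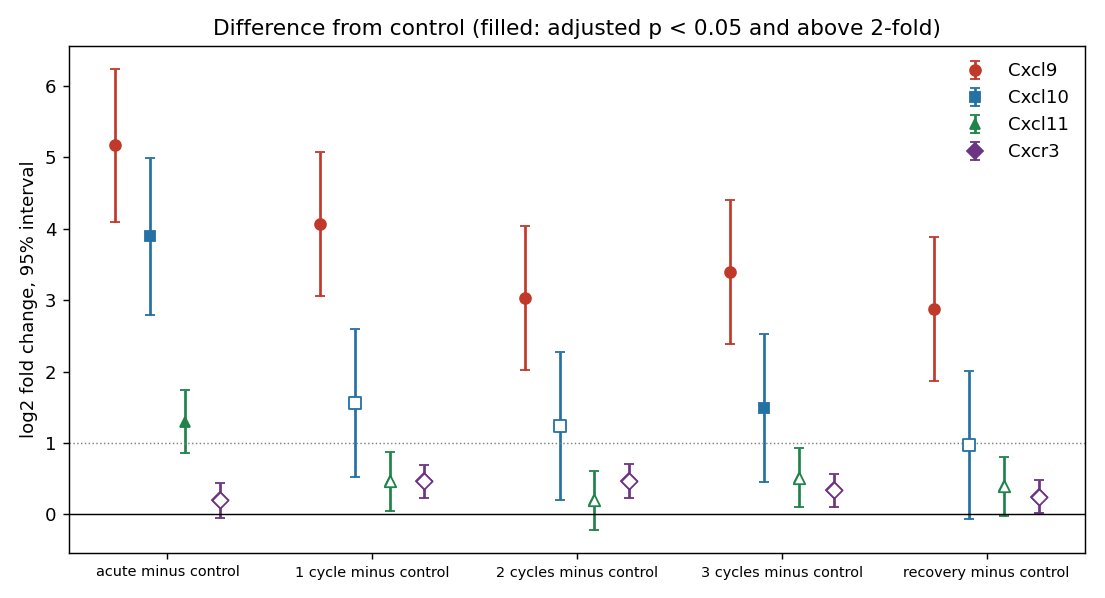
Log2 fold change against control (vertical axis) with its 95% interval for the 4 members in the 5 DSS groups (horizontal axis), from limma. Filled symbols mark calls (adjusted p under 0.05 and above 2-fold, the dotted line), and Cxcl9 runs from 5.16 in acute colitis to 2.88 in recovery with a filled symbol in every group.

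Acute colitis was next set against the later stages. Cxcl10 was called higher in acute colitis than after 1 cycle (2.33 ± 0.53, 5.04-fold, adjusted p = 0.0099), 2 cycles (2.65 ± 0.53, adjusted p = 0.00173), 3 cycles (2.40 ± 0.53, adjusted p = 0.00348) and recovery (2.91 ± 0.53, 7.54-fold, adjusted p = 0.000585). The call of Cxcl10 against 1 cycle was lost with the 2 sets of arrays as a covariate (2.22, adjusted p = 0.0505) and within the low set, which holds 2 of the acute mice (2.28, adjusted p = 0.278), where the calls against 2 cycles were lost too. Cxcl9 was called higher than after 2 cycles (2.13 ± 0.52, adjusted p = 0.0086), 3 cycles (1.78 ± 0.52, adjusted p = 0.0255) and recovery (2.28 ± 0.52, adjusted p = 0.00433), whereas against 1 cycle the difference was 1.10 ± 0.52 (adjusted p = 0.246). Cxcl11 was called against 2 cycles (1.10 ± 0.21, adjusted p = 0.00117), and against 1 cycle, 3 cycles and recovery its differences of 0.83, 0.79 and 0.91 had adjusted p of 0.0198, 0.0152 and 0.00545 and stayed under 2-fold. Members called higher numbered 1 against 1 cycle, 3 against 2 cycles, 2 against 3 cycles and 2 against recovery, where 0.197%, 0.298%, 0.298% and 0.369% of all probe sets were called higher. Cxcr3 had lower means in acute colitis than in the later stages (−0.26, −0.27, −0.14 and −0.05 against 1, 2 and 3 cycles and recovery, adjusted p = 0.218, 0.181, 0.546 and 0.854). Some of these calls rested on single mice. Without B3, the difference of Cxcl9 was 1.59 against 2 cycles (adjusted p = 0.0522) and 1.23 against 3 cycles (adjusted p = 0.139), and that of Cxcl11 against 2 cycles was 0.77. The call of Cxcl9 against 3 cycles was also lost without B4, F1, F3 or F5 (1.56 to 1.63) and that of Cxcl11 against 2 cycles without B4 (0.998). Without B2, in contrast, Cxcl9 was called against 1 cycle (1.72, adjusted p = 0.0239) and Cxcl11 against 1 cycle (1.15), 3 cycles (1.10) and recovery (1.22, and 1.02 without C3). The spread within the acute group was wide, with an SD of 1.45 for Cxcl9 and 1.87 for Cxcl10 in 4 acute mice against 0.27 and 0.22 in 5 controls. When the fit held only the 2 groups compared, none of these calls against later stages was made, and the adjusted p of Cxcl10 then lay between 0.0512 against recovery and 0.19 against 1 cycle.

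No member was called between the later stages, either way. The means of Cxcl9 were ordered acute (10.8), 1 cycle (9.71), 3 cycles (9.03), 2 cycles (8.68), recovery (8.52) and control (5.64), and of the neighbours in this order only recovery and control differed by the test. After 2 cycles Cxcl9 differed from 1 cycle by −1.03 ± 0.49 (95% limits −2.04 and −0.025, adjusted p = 0.859). Against 1 cycle, recovery had a difference of −1.19 ± 0.49 (adjusted p = 0.287) and 3 cycles one of −0.68 ± 0.49 (adjusted p = 0.489). Against 2 cycles with no additional recovery, the recovery group differed by −0.15 ± 0.49 for Cxcl9 and −0.27 ± 0.50 for Cxcl10, with 95% limits of −1.16 and 0.86 for Cxcl9 and of −1.30 and 0.77 for Cxcl10. Cxcr3 differed by −0.22 ± 0.11 in the same comparison (adjusted p = 0.607) and Cxcl11 by 0.20 ± 0.20 (adjusted p = 0.841). At an unadjusted p under 0.05, 1 member passed between 2 cycles and 1 cycle and 1 between recovery and 1 cycle, Cxcl9 in both, and 0 in the other 4 comparisons of later stages. Calls in either direction over all probe sets were 0% for 2 cycles against 1 cycle, 0.121% for 3 cycles against 1 cycle, 0% for 3 cycles against 2 cycles, 0.276% for recovery against 1 cycle, 0.161% for recovery against 2 cycles and 0% for recovery against 3 cycles.

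The measured values of the ligands did not move by equal amounts, and this was tested on the difference of their log2 values within each array. Since such a difference also depends on the probes of either gene, only its change between groups was read. Such a change can still be affected by the compression of dim values, and its part was not tested. Cxcl10 was below the median of its array in 6 of 29 arrays, all 5 controls and recovery mouse M1, and Cxcl9 in 5, all controls. Any such compression would therefore fall on the controls, the reference of these tests and of the fold changes against control. Cxcl10 minus Cxcl9 averaged −1.52 ± 0.46 (SD, n = 4) in acute mice, −2.76 ± 0.20 after 1 cycle, −2.04 ± 0.29 after 2 cycles, −2.15 ± 0.42 after 3 cycles and −2.15 ± 0.33 after recovery (n = 5 each), against −0.25 ± 0.22 in controls (n = 5). All DSS mice lay below all controls, so that Cxcl9 gained on Cxcl10 in each DSS group, by 1.27 in acute colitis and 2.51 after 1 cycle (exact two-sided permutation test, p = 0.007937, the smallest these group sizes allow, adjusted p = 0.01339 over 27 tests, in each of the 5 groups). Between acute colitis and 1 cycle the difference itself changed by 1.24 in favor of Cxcl10, with no overlap of the mice (exact permutation p = 0.007937, adjusted p = 0.01339). Against 2 cycles, 3 cycles and recovery the change was 0.52, 0.63 and 0.63 (exact permutation, adjusted p = 0.09428, 0.06522 and 0.05844).

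The difference of Cxcl11 from the other ligands changed as well, but a dim probe set is compressed on this scale and the files hold no background measure, so a smaller change of Cxcl11 itself cannot be told apart from that compression. Cxcl11 minus Cxcl9 averaged −4.57 ± 0.65 in acute mice, −4.30 ± 0.37 after 1 cycle and −3.19 ± 0.57 after recovery, against −0.70 ± 0.25 in controls. The changes from control were −3.86, −3.60, −2.84, −2.88 and −2.49 over the 5 groups in the order above (exact permutation, adjusted p = 0.01339 in each). Cxcl10 minus Cxcl11 averaged 3.05 ± 1.05 in acute mice, 1.55 ± 0.41 after 1 cycle, 1.50 ± 0.45 after 2 cycles, 1.43 ± 0.73 after 3 cycles and 1.04 ± 0.29 after recovery, against 0.46 ± 0.24 in controls. It was larger than in controls in each group (exact permutation, adjusted p = 0.02521 for recovery and 0.01339 for the others), and larger in acute colitis than after 1 cycle by 1.50, after 2 cycles by 1.55 and after recovery by 2.01 (exact permutation, adjusted p = 0.03384, 0.03384 and 0.01339). Against 3 cycles it was 1.62 (exact permutation, adjusted p = 0.05102). With single mice left out, p under 0.05 was lost in 8 of 9 cases against 1 cycle and in 8 of 9 against 2 cycles, and in 0 of 9 against recovery.

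**Figure D3:**
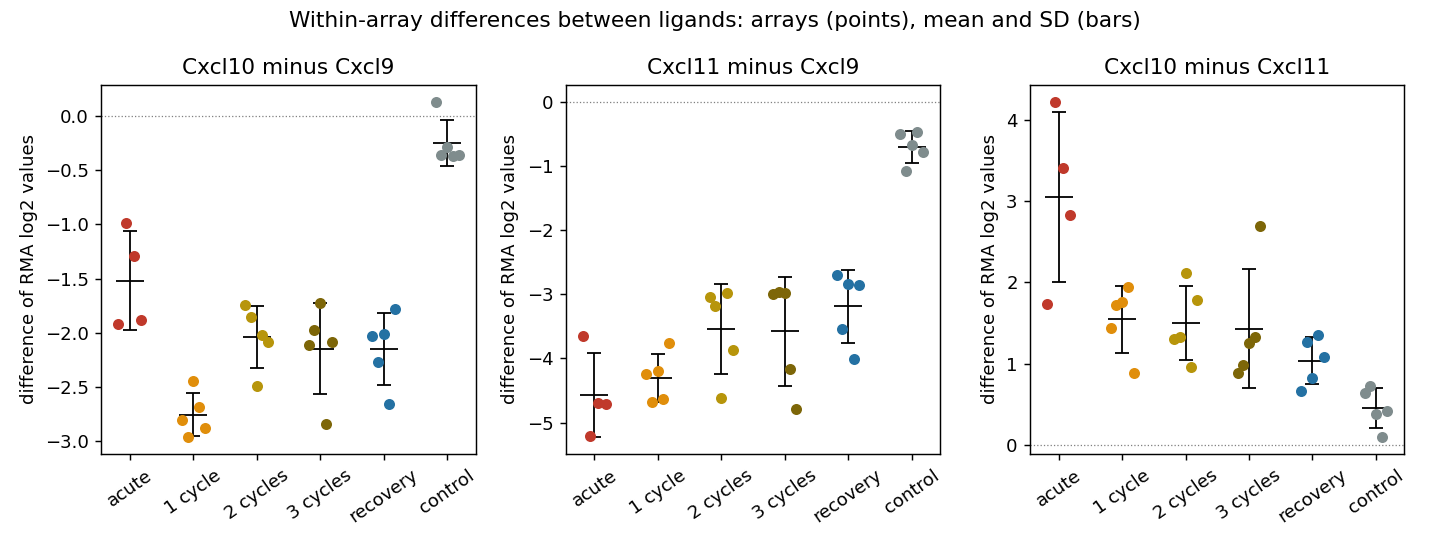
Difference of the RMA log2 values of 2 ligands within each array (vertical axes), 1 point per mouse, by group (horizontal axes), with the mean and SD as bars. Cxcl10 minus Cxcl9 is lowest after 1 cycle (mean −2.76) and near 0 in controls (mean −0.25), and Cxcl10 minus Cxcl11 is highest in acute mice (mean 3.05).

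The 4 acute mice differed widely among themselves and did so in the same order for all ligands. Cxcl9, Cxcl10 and Cxcl11 were each highest in B3, then B4, then C3, and lowest in B2. Between B3 and B2 this was 11.2-fold for Cxcl9, 21.4-fold for Cxcl10 and 3.8-fold for Cxcl11, and for Cxcr3 the highest and the lowest acute mouse were 1.22-fold apart. Ifng, the gene of interferon gamma, followed the same order, with values of 9.15 in B3, 6.52 in B4, 5.58 in C3 and 5.35 in B2, against 4.84, 5.14, 5.14, 4.96 and 5.02 in controls. Ido1, a tryptophan-degrading enzyme induced by interferon gamma, was also highest in B3 (10.48) and lowest in B2 (8.70), with B4 and C3 at 10.45 and 10.24. The 14 genes of cytotoxic and NK cells averaged 6.09, 5.81, 5.49 and 5.26 in B3, B4, C3 and B2, in the order of the ligands, against 4.89 to 5.0 in controls. Neutrophil genes averaged 8.39 in B3, 7.01 in C3, 6.80 in B4 and 5.91 in B2, and T cell genes 6.19 in B4, 6.12 in B3, 5.87 in C3 and 5.73 in B2, so that B2 was lowest in each. The part of these cells in the order of the ligands was not tested.

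**Figure D4:**
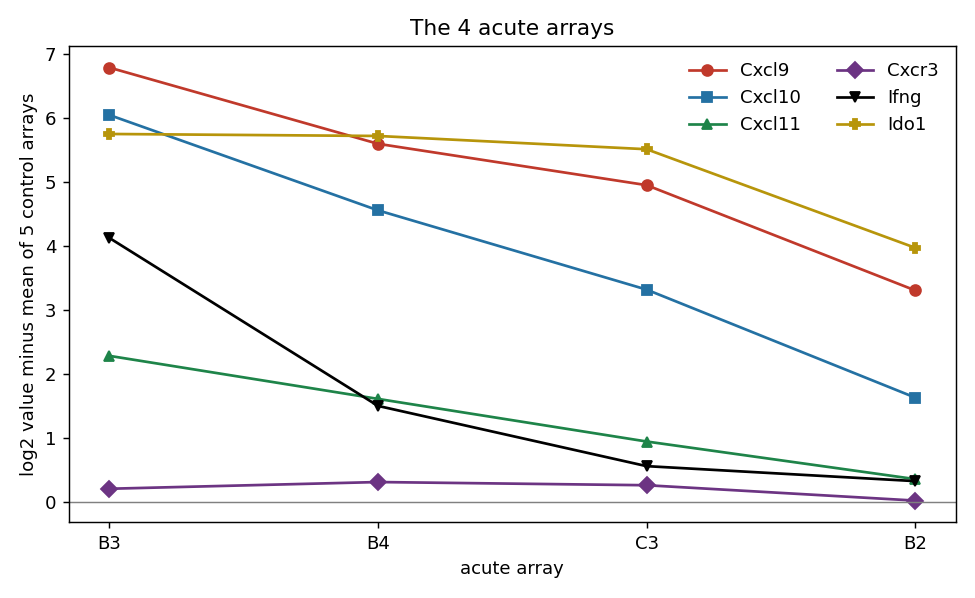
Log2 value minus the mean of the 5 control arrays (vertical axis) for the 4 members, Ifng and Ido1 in the 4 acute arrays (horizontal axis). The lines of Cxcl9, Cxcl10, Cxcl11 and Ifng descend over B3, B4, C3 and B2, and the line of Cxcr3 is nearly level.

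Ifng rose in acute colitis and was called in no later stage. Its log2 fold change against control was 1.63 ± 0.40 in acute colitis (adjusted p = 0.00388), and without B3 it was 0.80, under 2-fold (adjusted p = 0.000664). After 1, 2 and 3 cycles and recovery it was 0.40, 0.19, 0.35 and 0.16 (adjusted p = 0.654, 0.849, 0.562 and 0.833). Of 11 genes of interferon gamma and its induction, 1 was called higher in each DSS group (in acute colitis 2 without B2 or C3, and 0 without B3). This was Ifng in acute colitis and Stat4, which carries the interleukin-12 signal in T helper 1 cells, in the other groups (1.51, 1.63, 1.55 and 1.46). The recovery call of Stat4 was lost with the 2 sets of arrays as a covariate (1.54 ± 0.36, adjusted p = 0.0587). Tbx21, the transcription factor of T helper 1 cells, had differences of 0.35 in acute colitis and 0.33, 0.30, 0.26 and 0.35 in the later groups, and none was called. Il15 and Il18 of the same list had lower means in every DSS group, none called. Il15 averaged 7.01 in controls and 6.11, 6.39, 6.11, 6.17 and 6.26 over the DSS groups. Il18 averaged 8.64 in controls and 8.20, 7.99, 8.31, 7.99 and 7.90. By adjusted p alone 5, 4, 2, 4 and 2 of the 11 genes were higher over the DSS groups and 1, 1, 1, 2 and 2 lower. Of 7 measured genes of the interferon gamma receptor and its signalling, 2 were called in acute colitis, Socs1, an inhibitor of this signalling (1.21 ± 0.17), and Irf8, an interferon regulatory factor of myeloid cells (1.07 ± 0.12). Without B3 the difference of Irf8 was 0.93 and that of Socs1 was 1.02. None of the 7 was called in the other groups. Irf1, which acts on promoters of interferon gamma targets, had a difference of 1.00 ± 0.18 in acute colitis (adjusted p = 0.000182), which did not pass 2-fold.

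Other targets of interferon gamma rose together with the ligands. Of 19 measured, 16 were called higher in acute colitis, 12 after 1 cycle, 8 after 2 cycles, 13 after 3 cycles and 8 after recovery, and none lower. Their median log2 fold change was 1.70, 1.27, 1.11, 1.30 and 0.99, while that of all probe sets was 0.04, −0.01, −0.01, 0.02 and −0.0048. Ido1 had log2 fold changes of 5.24 ± 0.50 in acute colitis and 3.50, 2.43, 2.77 and 2.36 in the later groups, all called. Nos2, which makes nitric oxide in activated macrophages and epithelium, had 4.10 ± 0.47 in acute colitis and 2.31, 2.28, 2.40 and 1.73 later, all called. Iigp1, an immunity-related GTPase, had 3.84 ± 0.46 in acute colitis and 2.67, 1.86, 2.08 and 1.74 later, all called. Gbp5, a guanylate-binding protein, was called in acute colitis (3.13 ± 0.45), after 1 cycle (1.37) and after 3 cycles (1.30), and its differences after 2 cycles (1.15, adjusted p = 0.116) and recovery (0.99, adjusted p = 0.122) were not. With the 2 sets of arrays as a covariate, the count was 16 in acute colitis, 12 after 1 cycle and 5 after 2 cycles, and 0 after 3 cycles and recovery.

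The lists of type I interferon and of NF-kB hold ligands, receptors and signalling genes as well as targets, so their medians are not set against that of the interferon gamma targets. Of 19 measured genes of type I interferon and its targets, 7 were called higher in acute colitis, 5 after 1 cycle, 4 after 2 cycles, 4 after 3 cycles and 1 after recovery, with a median of 0.60 in acute colitis and 0.42 in recovery. Ifit1, which binds foreign RNA, had 1.74 ± 0.35 in acute colitis and 1.60, 1.32 and 1.14 after 1, 2 and 3 cycles. Oasl2, a member of the oligoadenylate synthetase family, was called in all 5 groups (1.69 in acute colitis and 1.05 in recovery). Of 14 measured genes of tumor necrosis factor and NF-kB, 6 were called in acute colitis, 2 after 1 cycle, 2 after 2 cycles, 1 after 3 cycles and 2 after recovery. Tnf was called only in acute colitis (1.82 ± 0.31), as was Il6 (2.28 ± 0.51), while Il1b, an inflammasome-processed cytokine, was called in acute colitis (3.63 ± 0.51), after 1 and 2 cycles (2.33 and 2.25) and after recovery (1.45). Without B3 the acute difference of Il6 was 1.25 (adjusted p = 0.00036). The calls of both lists after 3 cycles and recovery were lost with the array sets as a covariate, and 2 of the type I interferon list were called after 2 cycles.

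**Figure D5:**
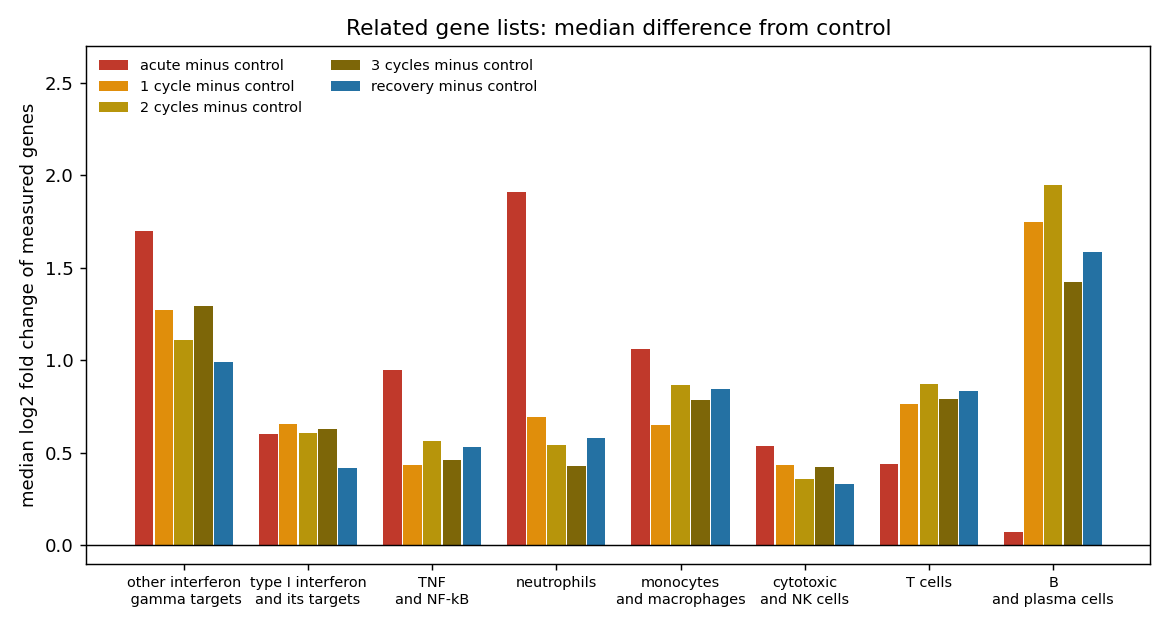
Median log2 fold change against control (vertical axis) over the measured genes of 8 lists (horizontal axis), 1 bar per DSS group. The lists differ in makeup, so bars are to be compared within a list only. The bar of other interferon gamma targets is highest in acute colitis (1.70) and lowest in recovery (0.99), the neutrophil bar is highest in acute colitis, and the bar of B and plasma cells is near 0 in acute colitis (0.07) and 1.42 or more in the later groups.

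T cells and cytotoxic and NK cells, some of which carry CXCR3, were followed by general markers that do not single out the cells with the receptor. Of 12 measured T cell genes, 0 were called in acute colitis (1 without B2 or C3, and 7 passed by adjusted p alone), 1 after 1 cycle, 5 after 2 cycles, 4 after 3 cycles and 4 after recovery. Cd3e, a chain of the T cell receptor complex, had 0.72 ± 0.20 in acute colitis and 0.94 after 1 cycle, not called, and 1.08, 1.20 and 1.03 after 2 cycles, 3 cycles and recovery, called. Cd8a, of cytotoxic T cells, had differences between 0.38 and 0.45 in the 5 groups, none called. The mean of the T cell list per array was 5.73 to 6.19 in acute mice, 5.95 to 6.53 after 1 cycle, 6.16 to 6.51 after 2 cycles, 6.01 to 6.59 after 3 cycles and 5.91 to 6.45 after recovery, against 5.39 to 5.63 in controls. Of 14 genes of cytotoxic and NK cells, 4 were called in acute colitis, 1 after 1 cycle, 1 after 2 cycles, 2 after 3 cycles and 0 after recovery. Without B3 only 1 of the 14 was called in acute colitis. Gzmb, a protease of cytotoxic granules, had 1.44 ± 0.26 in acute colitis and 0.98 without B3, and Ccl5, a chemokine of these cells that acts on other receptors, had 2.30 ± 0.33 and 1.86 without B3. Ncr1, an NK cell receptor, had 0.45 ± 0.11 in acute colitis, not called. With the 2 sets of arrays as a covariate, the T cell counts were 3 after 2 cycles, 2 after 3 cycles and 0 after recovery, with none of the calls of Cd3e, and the cytotoxic and NK cell counts were 3 in acute colitis and 0 after 2 cycles, 3 cycles and recovery.

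Other chemokine receptors and ligands followed courses of their own. Of 11 measured receptors of lymphocytes and other leukocytes, 1 was called in acute colitis, 4 after 1 cycle, 4 after 2 cycles, 1 after 3 cycles and 1 after recovery. Ccr2, of inflammatory monocytes and some T cells, was the acute call (1.85 ± 0.32), and without B2 the acute count was 2. Cxcr4 was called in the 4 later groups (1.28, 1.42, 1.20 and 1.30), and Cxcr5, of B cells and follicular helper T cells, after 1 and 2 cycles (1.27 and 1.11). Of 11 other CXC and CX3C ligands, 3 were called in acute colitis and 1 in each other group. The acute count was 5 without B2 and 2 without B3 or B4. Cxcl5 and Cxcl2, which attract neutrophils through another receptor, were called in acute colitis (3.06 ± 0.58 and 2.76 ± 0.60), and Cxcl13, the ligand of CXCR5, in all 5 groups (1.12, 1.89, 1.77, 1.10 and 1.07), though not in acute colitis without B3 (0.80) or B4 (1.09, adjusted p = 0.0526). Of 9 measured proteins that act with the CXCR3 axis, 2 were called in each group, Rac2 (1.19 to 1.56) and Dock2 (1.09 to 1.52), both of leukocyte migration, and without B3 0 of the 9 were called in acute colitis, against 1 without B4. Fitted with the array sets as a covariate, 0 of the 9 were called after 3 cycles and recovery (Rac2 1.38 and 1.32, Dock2 1.37 and 1.38), Cxcl13 was not called there either (1.42 and 1.39), and the receptor count after 2 cycles was 1, without Cxcr5. Dpp4, a peptidase that trims and inactivates CXCR3 ligands, had −0.70 ± 0.11 in acute colitis (adjusted p = 4.58e-05) and −0.61 ± 0.11 in recovery (adjusted p = 0.000684), under 2-fold. Pf4, a platelet chemokine that can bind CXCR3, had −0.46 ± 0.12 in acute colitis, and Ackr3, a scavenging receptor of CXCL11, −0.09 ± 0.11, neither called. Art3, which spans Cxcl10 and Cxcl11, had −1.03 ± 0.19 in acute colitis (adjusted p = 0.000241) and −0.83 without C3, opposite in sign to both chemokines.

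Markers of other infiltrating cells moved with the same groups, and their part in the results above was not tested. Of 10 neutrophil genes, 7 were called in acute colitis, 0 after 1, 2 and 3 cycles and 1 after recovery, and the list averaged 5.91 to 8.39 per array in acute mice against 5.42 to 5.58 in controls. Of 11 genes of monocytes and macrophages, 7, 3, 4, 5 and 4 were called over the 5 groups in the same order, with array means of 7.16 to 8.61 in acute mice against 6.79 to 7.22 in controls. Without B3, 3 of these 11 were called in acute colitis. Of 7 genes of B and plasma cells, 0 were called higher in acute colitis, where Jchain, the joining chain of secreted antibodies, was called lower (−1.48 ± 0.24), and 5, 5, 6 and 5 were called higher in the later groups. Of 8 markers of stratified squamous epithelium, 7 were called higher in recovery and 0 in any other group, with array means of 5.13 to 10.4 in recovery and 5.33 to 7.79 after 3 cycles, against 5.24 to 5.37 in controls. Recovery mouse M5, whose squamous mean of 5.13 was at the level of the controls, had a Cxcl9 value of 8.25 and a Cxcl10 value of 6.24, within the range of the other recovery mice. Of 9 genes of fibroblasts and smooth muscle, 4 were called lower in acute colitis (2 without B4 or C3) and 0 in the later groups. Over all probe sets, 1.4% were called lower in acute colitis and 0.186%, 0.124%, 0.597% and 0.563% in the later groups. Of 8 dendritic cell genes 1 was called in each DSS group but recovery, and of 8 endothelial genes 0 were called in any group, while up to 4 passed by adjusted p alone. With the 2 sets of arrays as a covariate, no gene of the lists of squamous epithelium, neutrophils, monocytes and macrophages, or dendritic cells was called after 3 cycles or recovery. For B and plasma cells that fit called 5, 4, 1 and 1 in the later groups, and for fibroblasts and smooth muscle 2 in acute colitis.

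The genes whose values followed each member most closely were sought among 19937 others over the 29 arrays, which share groups and, in part, array sets, so the correlations are a description with no test. Nearest to Cxcl9 were Gm12250, Iigp1, Zbp1, Tap1 and Ido1, with Pearson r between 0.973 and 0.954 and Spearman rho between 0.908 and 0.941. Tap1 moves peptides to MHC class I and Zbp1 senses nucleic acids. With the group means subtracted, r was between 0.825 and 0.936 for these 5, and without the acute arrays, over 25 arrays, between 0.944 and 0.964. Without mice B3 and A1, the farthest from the median of Cxcl9, it was between 0.942 and 0.965.

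Nearest to Cxcl10 were Gbp5 (r = 0.974, rho = 0.888), Fcgr1 (r = 0.971, rho = 0.92), Gbp4, Socs1 and Slfn1. Fcgr1 encodes the high-affinity receptor for immunoglobulin G of macrophages. Without the acute arrays r was 0.92 for Gbp5 and 0.867 for Slfn1, and without B3 and B4, the farthest mice, 0.937 and 0.882. Nearest to Cxcl11 were Gbp5 (r = 0.951, rho = 0.809), Cxcl10 (r = 0.940, rho = 0.763), Ccl2, Tgm2 and Apol6. Ccl2, the monocyte chemokine that binds CCR2, had r = 0.936 over all arrays and 0.697 without the acute arrays, and 0.77 without B3 and B4. Among the ligands themselves, Cxcl9 and Cxcl10 had r = 0.875 and rho = 0.948, with r = 0.924 after the group means were subtracted, 0.919 without the acute arrays and 0.879 without B3 and A1. Cxcl9 and Cxcl11 had r = 0.799 and rho = 0.843.

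Cxcr3 followed other genes than its ligands. Nearest to it were Rnase6 (r = 0.87, rho = 0.882), Kmo and Kynu, enzymes of the kynurenine pathway downstream of Ido1 (r = 0.87 and 0.848), Wdfy4, which serves cross-presentation in dendritic cells (r = 0.852), and Cxcr5 (r = 0.848). With the group means subtracted, r was between 0.727 and 0.788 for these 5, and without mice A1 and E2 between 0.845 and 0.878. With Cxcl9, Cxcl10 and Cxcl11, Cxcr3 had r of 0.567, 0.293 and 0.175 and rho of 0.515, 0.478 and 0.333. Without the acute arrays these r were 0.766, 0.709 and 0.52, and without A1 and E2 they were 0.47, 0.224 and 0.116. Like Cxcr3, Cxcr5 was lower in acute mice (4.91 to 5.47) than in 1-cycle mice (5.95 to 6.90), with no overlap, and in controls it lay between 4.59 and 5.34. Since Cxcr5 was picked here for its likeness to Cxcr3 over these same arrays, this shared course is no separate evidence.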

How the data were processed

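RNA from the colon of 29 mice (acute 4, the other groups 5 each) was measured on Affymetrix Mouse Gene 1.0 ST arrays. The authors applied RMA (R 2.12.2) and deposited its log2 values, 1 per probe set and array, and the genome build is not given in the sources used here. RMA brings all arrays to 1 distribution, so a difference is relative to the other probe sets, and dim probe sets are compressed. The files give no probe signals or background, and the number of arrays limits the precision.

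Groups came from the labels. The deposited log2 values were tested with limma 3.58.1 in R 4.3.3, with 6 group means and 1 spread per probe set, on all 35511 probe sets, with Benjamini-Hochberg adjustment over the probe sets of each of 15 comparisons. Genes were called at an adjusted p below 0.05 with more than a 2-fold change. The annotation table gives 1 symbol to 21789 probe sets, several to 1621 and none to 12101, and a gene is its brightest probe set with 1 symbol. Differences between ligands were compared with exact two-sided permutation tests over arrays (27 tests). Promoters are those of RefSeq, GRCm38.p6, matched for 3 of the 4 members. The limma step was tested on simulated data. Alternatives were fits of the compared groups alone, arrays of the same label letter as a random block (within-letter correlation −0.07), array weights (0.320 to 1.84), a trended robust prior, 19729 probe sets without dim ones, probe sets of 1 symbol, quantile normalization, median centring, the 2 sets of arrays as a covariate or separately, each array left out, the adjusted p alone and permutation tests. No other probe set of a member exists, and protein sequences were not used here.

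The named genes are the members, the 5 genes most like each member, up to 4 genes per list of largest change from control, and Ifng, Irf1, Tbx21, Cd3e, Cd8a, Gzmb, Ncr1, Dpp4, Ackr3, Pf4 and Epcam. Art3, and the list counts with each acute array left out, were chosen after seeing the data. The members and lists were chosen with earlier results of these data known.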

Additional observations from a re-analysis of the deposited data

Results flagged for a closer look

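Of the 24 sets of values (4 members in 6 groups), 1 held a mouse far from the others by Dixon's test, which chance gives for about 1 in 20 sets. The Cxcl10 value of 3-cycles mouse G3 was 8.49, and the other 3-cycles mice lay between 6.24 and 6.76. The same mouse had the highest Cxcl9 (10.58) and Cxcl11 (5.79) of its group, and the squamous markers averaged 7.79 in it and 5.33 to 5.42 in the other 3-cycles mice.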

How the results depend on the processing

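Members called higher than control in acute colitis numbered 3 in the main model and kept within 1.5 times that count in every alternative run. After 1 cycle 1 was called, and 2 with the compared groups alone, the letter as a block, array weights, no dim probe sets, only probe sets of 1 symbol, or the adjusted p alone. After 2 cycles 1 was called, 2 with the compared groups alone, array weights or the adjusted p alone, and 0 within the low set of arrays. After 3 cycles 2 were called and after recovery 1, and 0 in either with the set as a covariate. In acute colitis against 1 cycle the count was 1, 2 by adjusted p alone, and 0 with the compared groups alone, the set as a covariate or within the low set. Against 2 cycles it was 3, and 0 with the compared groups alone or within the low set. Against 3 cycles it was 2, 1 with array weights or within the high set, and 0 with the compared groups alone. Against recovery it was 2, and 0 with the compared groups alone. The exact permutation test of each member was adjusted over 40 tests of the members and not over all probe sets. Its smallest p needs only a lack of overlap between 2 groups. The share of all probe sets that would pass is not given here, so a pass only describes the values. Of differences above 2-fold, the test passed Cxcl10 after 1 and 2 cycles against control as well (0.01764 in both). It did not pass Cxcl9 in acute colitis against 3 cycles (0.08192). Under 2-fold, it also passed Cxcl10 after recovery (0.01764) and Cxcl11 after 1 cycle, 3 cycles and recovery (0.01764 in each) and 2 cycles (0.02885). Cxcr3 passed against control after 1 and 2 cycles (0.01764 in both). In acute colitis Cxcr3 passed as lower than after 1 and 2 cycles (0.02885 and 0.04704), and Cxcl11 as higher than after recovery (0.04704). The causes were not tested.

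With single arrays left out, the counts ranged from 1 to 2 for 1 cycle (2 without B2, B3 or G3) and from 1 to 2 for 3 cycles against control. In acute colitis they ranged from 1 to 3 against 1 cycle (3 without B2), from 1 to 3 against 2 cycles (1 without B3) and from 1 to 3 against 3 cycles (3 without B2, and 1 without B3, B4, F1, F3 or F5). Reversed in sign, with no call on either side, were Cxcr3 in acute colitis against recovery (−0.050 in the main model, 0.036 within the high set, and from −0.11 without M5 to 0.0096 without B2 with single arrays left out, among them 0.00043 without M3) and Cxcl9 in recovery against 2 cycles (−0.15, and from −0.40 without N2 to 0.15 without E2). Of the values of single members under all alternatives, 1527 had the direction and the side of the threshold of the main model, 38 lost a call, 17 gained one and 4 reversed. No paired analysis was possible because each mouse belongs to 1 group and no replicate name is shared. Cxcl11 was among the dim probe sets left out, so it has no value there.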
